A study of Mus musculus with 8 samples.

Results

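The genes of the RNA exosome were followed on 8 mouse arrays. The members are 10 genes, listed by name: Exosc1, Exosc2, Exosc3, Exosc4, Exosc5, Exosc7, Exosc8, Exosc9 and Exosc10, which encode subunits, and Dis3, which encodes a nuclease bound to them. Every probe set (a group of short probes for 1 transcript) named to 1 of these genes alone was taken. This gave 13 probe sets of 8 genes, out of 28898 single-gene probe sets of 17097 genes on the array, and 12 of the 13 were bright enough to be tested. Exosc4 and Exosc7 had no probe set named to them in the platform annotation used here and have no value. A further probe set is shared by Exosc5 and Tmem91 and was left out of all counts.

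RNA was taken from sorted Epcam+ cells of mouse skin tumours, Epcam being an epithelial surface protein, and each of 4 groups had 2 arrays. GOF papillomas (benign tumours) overexpress the orphan nuclear receptor NR2F2 and carry the genotype label NR2F2 GOF, against control papillomas labelled NR2F2 WT. LOF squamous cell carcinomas, labelled NR2F2 KO, are K5CreER;NR2F2fl/fl, with a recombinase driven from the keratin 5 promoter and floxed Nr2f2, against control carcinomas labelled NR2F2 WT and lacking Cre. The labels give neither the driver of the overexpression, nor the age of the mice, nor how the tumours were induced, and they do not state that replicate arrays stand for separate mice. The p-values therefore measure only the spread between these arrays, which may be technical.

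The exosome is a barrel of subunits that degrades and trims RNA from its 3′ end. Exosc1, Exosc2 and Exosc3 form an RNA-binding cap. The genes Exosc4 to Exosc9 encode a ring that threads the RNA but in mammals does not cut it, and the cutting is done by Dis3 at the bottom of the barrel and by Exosc10 on top. In the nucleus the complex trims ribosomal RNA precursors and removes unstable transcripts. In the cytoplasm it takes part in mRNA turnover. In human epidermis it is known for keeping progenitor cells undifferentiated.

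All values are deposited log2 values. The papilloma columns had medians of 3.12 to 3.16 and the carcinoma columns of 5.08 to 5.15, so the tumour types were treated as normalized separately and no level or effect was tested between them. The highest non-mouse control probe set of each array, used as its background, lay at 3.09 to 3.33 in papilloma and 4.95 to 5.01 in carcinoma. The brightest Nr2f2 probe set read 11.43 and 11.47 in GOF papillomas against 2.80 and 2.55, below background, in control papillomas. It averaged 4.88 ± 0.16 in LOF carcinomas against 8.03 ± 0.15 in control carcinomas (SD, n = 2 each), a log2 fold change of -3.15 ± 0.17 (SE; adjusted p = 0.00808, limma), as the labels have it. Epcam was far above background on all 8 arrays, with means of 8.84 ± 0.23 in GOF papillomas against 10.37 ± 0.29 in control papillomas, and of 11.47 ± 0.05 in LOF carcinomas against 11.57 ± 0.30 in control carcinomas (SD, n = 2 each). All 20 tested probe sets of keratinocyte markers were above background on every array. At an adjusted p under 0.05 (limma), 2 passed as higher and 1 as lower in GOF papilloma, with 0 in LOF carcinoma. Of all tested probe sets, 0.902% passed in GOF papilloma and 0.0116% in LOF carcinoma. The 2 higher ones were both of Krt8 (log2 fold changes of 5.324 and 4.975). In control papillomas these read 3.29 and 3.34 on 1 probe set and 3.53 and 3.11 on the other, near background. The lower one was the brighter probe set of Epcam itself, at -1.53 (adjusted p = 0.0420, limma).

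The promoters of 3 members are shown: Exosc2 and Dis3, the genes with the largest differences in LOF carcinoma, and Exosc5, the member without one. Each window holds the 300 bases that run from 250 before to 50 after a RefSeq start site (assembly GRCm38.p6), written 5′ to 3′ on the gene's strand. Capitals mark matches on either strand to the searched motifs, which were AGGTCA (the half-site of nuclear receptors such as NR2F2), CCGGAA (ETS factors), CACGTG (an E-box), CCAAT (NF-Y), TATAAA (a core promoter element), GCGCATGC (NRF1) and AAGATGG (YY1). The Exosc2 window is chr2:31670465-31670764 (plus strand), the Dis3 window chr14:99099721-99100020 (minus strand) and the Exosc5 window chr7:25658903-25659202 (plus strand).
Exosc2: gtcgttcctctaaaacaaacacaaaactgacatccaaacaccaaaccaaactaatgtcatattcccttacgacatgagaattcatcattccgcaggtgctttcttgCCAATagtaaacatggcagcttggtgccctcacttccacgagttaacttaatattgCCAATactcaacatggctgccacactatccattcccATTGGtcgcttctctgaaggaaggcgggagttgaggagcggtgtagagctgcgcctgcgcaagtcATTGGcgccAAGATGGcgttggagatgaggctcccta
Dis3: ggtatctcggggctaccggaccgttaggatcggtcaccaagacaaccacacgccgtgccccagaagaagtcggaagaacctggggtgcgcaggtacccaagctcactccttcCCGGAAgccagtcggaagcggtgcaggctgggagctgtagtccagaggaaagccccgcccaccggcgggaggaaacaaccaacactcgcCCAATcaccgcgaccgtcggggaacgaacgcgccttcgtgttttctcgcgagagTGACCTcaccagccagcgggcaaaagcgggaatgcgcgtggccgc
Exosc5: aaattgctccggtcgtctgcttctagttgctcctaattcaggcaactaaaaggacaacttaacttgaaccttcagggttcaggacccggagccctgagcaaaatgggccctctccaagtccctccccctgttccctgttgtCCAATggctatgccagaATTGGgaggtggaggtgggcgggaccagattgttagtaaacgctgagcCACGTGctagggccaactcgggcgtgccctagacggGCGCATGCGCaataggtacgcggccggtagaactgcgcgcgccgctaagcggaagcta

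The Exosc2 window held 4 CCAAT matches and 1 AAGATGG match just after the start site. In the Dis3 window stood 1 match to CCAAT, another to CCGGAA and 1 to the AGGTCA half-site, as TGACCT on the printed strand. The Exosc5 window held 2 CCAAT matches, 1 E-box and 2 overlapping GCGCATGC matches. RefSeq gave 9 such windows for 8 of the members, with 2 for Exosc10. AGGTCA was in 1 of the 9 (Dis3) and in 16.3% of all 32851 windows, and 2 AGGTCA copies with 1 base between them were in none of the 9 and in 0.0396% of all. CCAAT was in 4 of 9 (37.4% of all), CCGGAA in 4 of 9 (14.9%), GCGCATGC in 2 of 9 (2.71%), CACGTG in 1 of 9 (7.15%), AAGATGG in 1 of 9 (6.34%) and TATAAA in 0 of 9 (13.6%). The members' windows had a median GC content of 64.0% (48.0% to 75.7%) and 24 CpG sites, against 52.7% and 7 over all windows. A match is a description of these letters and not evidence of binding.

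In LOF carcinoma, 7 of the 8 measured genes were higher on both arrays than on either control array, with Dis3 and Exosc2 about 2.01-fold higher and Exosc5 the exception. None of the 12 tested probe sets passed the adjusted threshold of 0.05 in the limma fit, in which 3 of 25931 probe sets (0.0116%) passed, or 152 without control carcinoma replicate 1 and 0 or 1 without any other single array. The lowest adjusted p of a member was 0.109. At an unadjusted p under 0.05, 7 of 12 were higher (Exosc1, both of Exosc2, Exosc3, Exosc8, Exosc9 and Dis3) and 0 lower, against 8.59% of all tested probe sets that were higher. Among the 12, the dimmest probe set of Exosc10 had passed the filter on dim probe sets through the LOF arrays alone, so its groups could not overlap. Of the other 11, 10 were higher without overlap, against 26.0% of all tested probe sets, or 25.6% without those that passed in that way. By the rule of at least 1.5-fold in all 4 array pairs, 3 of 12 were higher (both of Exosc2 and Dis3), against 1.71%. The median log2 fold change over the brightest probe set of each of the 8 genes was 0.62, with a range of -0.20 to 1.01, against 0.03 over all tested probe sets, of which 53.9% were positive. A comparison of 2 arrays against 2 allows no exact permutation p below 0.333, so no such test is given.

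**Figure D1:**
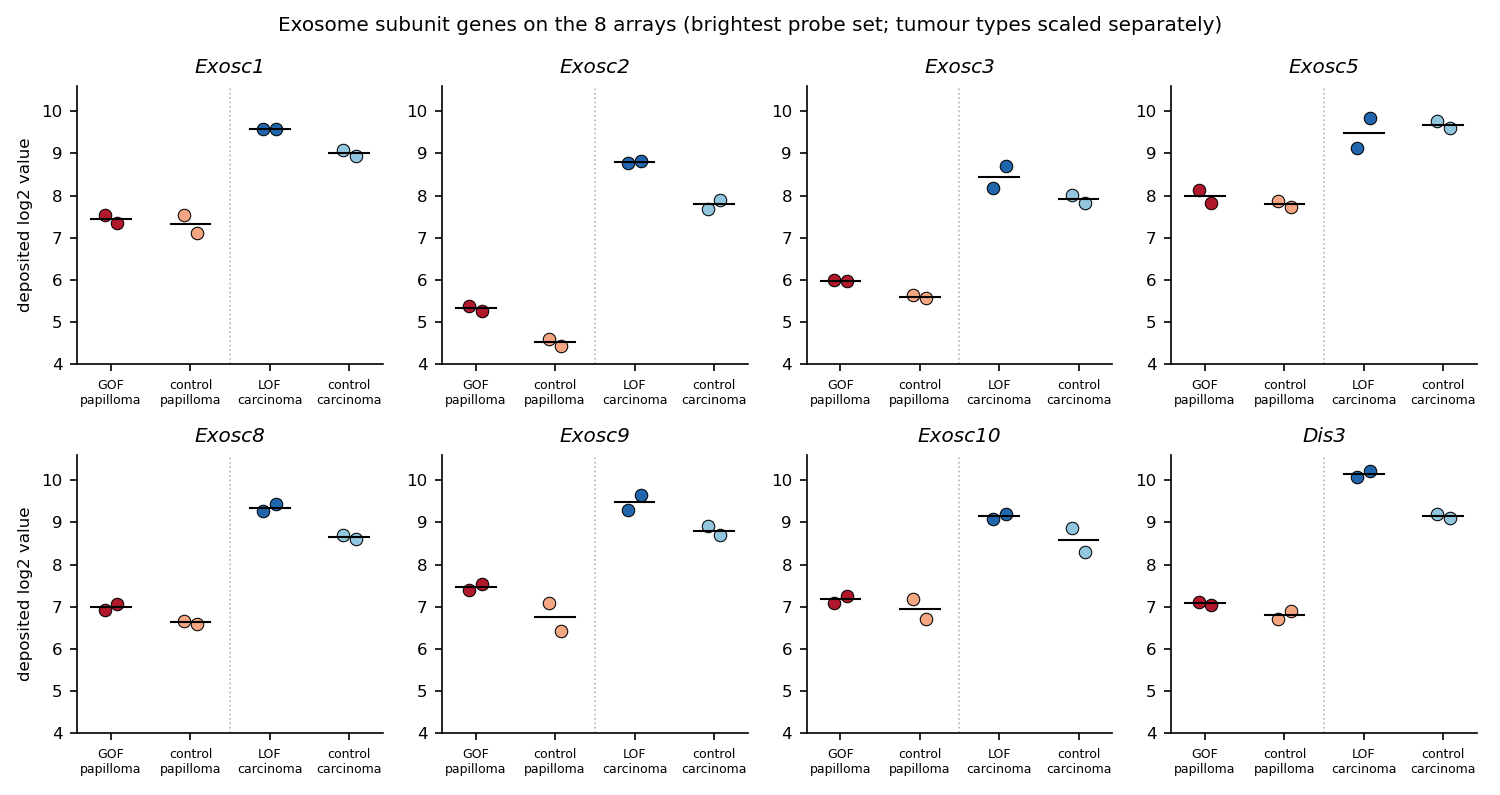
Deposited log2 value (y axis) of the brightest probe set of each of the 8 measured exosome genes on each array, with GOF papilloma, control papilloma, LOF carcinoma and control carcinoma along the x axis. Points are the 2 arrays of a group and bars their mean, and papilloma and carcinoma levels are on separate scales. Both LOF points lie above both control carcinoma points in every gene but Exosc5, and both GOF points lie above both control papilloma points in Exosc2, Exosc3, Exosc8, Exosc9 and Dis3.

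Among the cap genes, Exosc2 (its brighter probe set) read 8.78 and 8.83 in LOF carcinomas against 7.69 and 7.90 in control carcinomas. The groups stood well apart, with means of 8.80 ± 0.04 and 7.80 ± 0.15 (SD, n = 2 each). The log2 fold change was 1.01 ± 0.15 (SE; adjusted p = 0.110), and it was 0.88 to 1.14 over the 4 array pairs. A second, dimmer Exosc2 probe set gave 6.30 and 6.39 in LOF carcinomas against 5.26 and 5.44 in control carcinomas, a log2 fold change of 1.00 ± 0.16 (SE; adjusted p = 0.115). Both probe sets of this cap gene thus gave nearly the same difference, though the dimmer one lay below the highest nonspecific GC control on every carcinoma array. Exosc1, the cap subunit also known as Csl4, had 9.57 and 9.59 in LOF carcinomas against 9.08 and 8.93 in control carcinomas (0.57 ± 0.19, SE; adjusted p = 0.259). Exosc3, the cap subunit also known as Rrp40, had 8.17 and 8.71 in LOF carcinomas against 8.02 and 7.83 in control carcinomas (adjusted p = 0.325). LOF replicate 1 was only 0.15 above the higher control in Exosc3, whereas replicate 2 was 0.88 above the lower one.

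The ring genes split. Exosc8 read 9.27 and 9.43 in LOF carcinomas against 8.71 and 8.60 in control carcinomas, a log2 fold change of 0.70 ± 0.15 (SE; adjusted p = 0.149). Exosc9, the ring subunit also known as the PM/Scl-75 autoantigen, read 9.30 and 9.65 in LOF carcinomas against 8.91 and 8.70 in control carcinomas (0.67 ± 0.25, SE; adjusted p = 0.308). Neither gene had overlapping groups. Exosc5, also known as Rrp46, read 9.13 and 9.85 in LOF carcinomas against 9.76 and 9.61 in control carcinomas. Its LOF replicate 1 lay below both controls and its replicate 2 above both, the log2 fold change was -0.20 ± 0.25 (SE; adjusted p = 0.810), and without LOF replicate 1 it was 0.16.

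Of the nucleases, Dis3 read 10.09 and 10.22 in LOF carcinomas against 9.20 and 9.11 in control carcinomas. The groups did not overlap, with means of 10.16 ± 0.09 and 9.15 ± 0.06 (SD, n = 2 each), a log2 fold change of 1.01 ± 0.15 (SE; adjusted p = 0.109). By unadjusted p, Dis3 ranked 57 and the brighter Exosc2 probe set 74 of all 25931. Exosc10, the nuclear nuclease also known as Rrp6, read 9.09 and 9.20 in LOF carcinomas against 8.88 and 8.30 in control carcinomas on its brightest probe set (0.56 ± 0.25, SE; adjusted p = 0.375). The 2 controls lay as far apart as the group means.

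In GOF papilloma the same 8 genes were all above their controls in mean, and 5 of the 8 (Exosc2, Exosc3, Exosc8, Exosc9 and Dis3) had groups that did not overlap. Exosc2 differed most, at 1.75-fold, and again 0 of the 12 tested probe sets passed the adjusted threshold (limma), which 0.902% of all tested probe sets did. That share is 234 of 25931, and leaving out 1 array gave 1 without GOF replicate 1, 2 without GOF replicate 2, 11 without control papilloma replicate 2, 81 without either LOF array and 367 without either control carcinoma array. At an unadjusted p under 0.05, 3 of 12 were higher (the brighter Exosc2 probe set, Exosc8 and Exosc9) and 0 lower, against 9.24% of all. Without overlap, 7 of 12 were higher, against 26.3% of all tested probe sets. These included the dimmer Exosc2 probe set, above background on 1 GOF array only, and the second-brightest of Exosc10, whose groups were 0.01 apart. At least 1.5-fold higher in all 4 array pairs was 1 of 12 (the brighter Exosc2 probe set), against 3.58%. The median over the brightest probe sets was 0.32, with a range of 0.11 to 0.81, against 0.01 over all tested probe sets, of which 51.6% were positive.

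The cap gene Exosc2 read 5.39 and 5.27 in GOF papillomas against 4.60 and 4.44 in control papillomas. All but the value of GOF replicate 2 lay below the highest nonspecific GC control of their array. Both GOF arrays stood above both controls, with means of 5.33 ± 0.09 and 4.52 ± 0.11 (SD, n = 2 each) and a log2 fold change of 0.81 ± 0.15 (SE; adjusted p = 0.0734). Its dimmer probe set was below background in both control papillomas and on 1 of the 2 GOF arrays, at 3.06 and 3.32 in GOF papillomas against 2.96 and 2.89 in control papillomas, so it says little there. Exosc3 read 5.99 and 5.97 in GOF papillomas against 5.64 and 5.57 in control papillomas (0.37 ± 0.20, SE; adjusted p = 0.421). The SE of Exosc3 reflects mostly carcinoma spread, with SDs of 0.016 in GOF and 0.044 in control papillomas against 0.381 in LOF carcinomas. The third cap gene, Exosc1, overlapped, with 7.54 and 7.35 in GOF papillomas against 7.55 and 7.11 in control papillomas.

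For the ring, Exosc8 read 6.93 and 7.07 in GOF papillomas against 6.66 and 6.60 in control papillomas (0.37 ± 0.15, SE; adjusted p = 0.286). Exosc9 read 7.39 and 7.53 in GOF papillomas against 7.10 and 6.43 in control papillomas (0.70 ± 0.25, SE; adjusted p = 0.242). Much of the Exosc9 difference lay in control replicate 2, and the log2 fold change was 0.36 without it and 1.04 without control replicate 1. Exosc5 overlapped, with 8.14 and 7.83 in GOF papillomas against 7.87 and 7.73 in control papillomas. The nuclease gene Dis3 read 7.11 and 7.05 in GOF papillomas against 6.72 and 6.91 in control papillomas, a log2 fold change of 0.27 ± 0.15 (SE; adjusted p = 0.438). Exosc10 overlapped on its brightest probe set, with 7.10 and 7.25 in GOF papillomas against 7.18 and 6.72 in control papillomas.

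**Figure D2:**
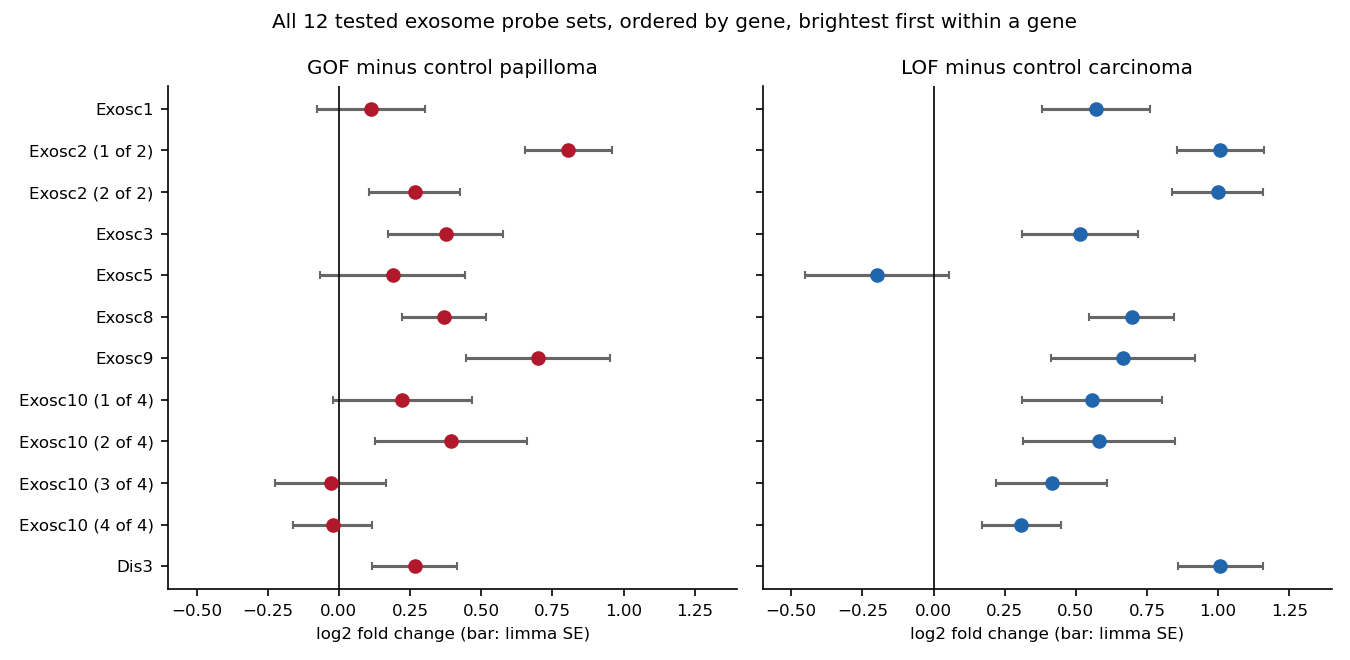
Log2 fold change (x axis) of the 12 tested exosome probe sets, GOF minus control papilloma on the left and LOF minus control carcinoma on the right, with bars for the limma standard error. Probe sets run down the page by gene, brightest first within a gene. Dis3 and both Exosc2 probe sets sit near 1.00 in LOF carcinoma, where Exosc5 is the only probe set below 0, and the brighter Exosc2 probe set at 0.81 is the highest in GOF papilloma.

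Nr2f2 was moved in opposite directions in the GOF and LOF tumours, while the members' mean differences from control were positive in both for 7 genes and positive in GOF papilloma alone for Exosc5. The effects in the 2 tumour types were not tested against each other, because the scales differ. Side by side, the log2 fold change of Dis3 was 0.27 in GOF papilloma and 1.01 in LOF carcinoma, and that of Exosc2 0.81 and 1.01. For Exosc9 the values were 0.70 and 0.67. Within the tumour types, single members strayed from the members' mean course by a root mean square of 0.07 log2 units for Exosc8, 0.09 for Exosc3 and 0.13 for Exosc1. Exosc2 strayed by 0.24 and Exosc5 by 0.32, the widest of the 8.

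Probe sets of 1 gene did not all read alike. Exosc10 had 4, and their log2 fold changes in LOF carcinoma were 0.56, 0.58, 0.41 and 0.31, with 0.22, 0.39, -0.03 and -0.02 in GOF papilloma. The second of them read 8.30 and 8.25 in LOF carcinomas against 7.90 and 7.48 in control carcinomas (adjusted p = 0.398). The third, of a kind (_x_at) whose probes may also match other transcripts, read 7.71 and 7.81 in LOF carcinomas against 7.56 and 7.13 in control carcinomas. The fourth was below background in both papilloma groups and in control carcinoma. It is the probe set that passed the filter through the 2 LOF arrays alone and so had to differ, with 5.18 and 5.16 in LOF carcinomas against 4.88 and 4.84 in control carcinomas, at least 1.14-fold. The second Exosc1 probe set and the one shared by Exosc5 and Tmem91 were below background on all 8 arrays and were not tested. That Exosc1 probe set read 4.18 and 4.46 in LOF carcinomas against 4.11 and 4.11 in control carcinomas.

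Subunits and partners outside the 10 genes were described from lists. The 5 other genes, namely the ring subunit Exosc6, the Exosc10 partners C1d and Mphosph6 and the Dis3 relatives Dis3l and Dis3l2, had 5 tested probe sets, of which none passed in either comparison. All 5 were higher without overlap in LOF carcinoma, against 26.0% of all tested probe sets, with a median log2 fold change of 0.46 that was 0.29 to 0.46 with 1 array left out. Their median in GOF papilloma was 0.15, and 0.07 to 0.43 with 1 array left out. Exosc6 read 9.21 and 9.83 in LOF carcinomas against 8.76 and 9.07 in control carcinomas, a log2 fold change of 0.60 (adjusted p = 0.358). C1d, a cofactor of Exosc10, read 8.57 and 8.26 in LOF carcinomas against 7.99 and 7.66 in control carcinomas, a log2 fold change of 0.59 (adjusted p = 0.270). Mphosph6 had the largest value in GOF papilloma, 0.74, through 1 array, with 5.16 and 3.93 in GOF papillomas against 3.71 and 3.90 in control papillomas.

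Nuclear cofactors, which bring RNA to the exosome, had 21 tested probe sets of 15 genes and 0 that passed in either comparison. Their median log2 fold change was 0.10 in LOF carcinoma (17 of 21 positive) and -0.09 in GOF papilloma (7 of 21 positive). Tent4b, a poly(A) polymerase that tags nuclear RNA for decay, had 0.64 in LOF carcinoma (adjusted p = 0.221). Its relative Tent4a had -0.60 in GOF papilloma and Nop53, a ribosome assembly adaptor, -0.67. The cap-binding gene Ncbp1 had 0.57 in GOF papilloma (adjusted p = 0.195) and 0.55 in LOF carcinoma. Cytoplasmic cofactors, the Ski complex genes with Hbs1l, Pelo and Gtpbp2, had 13 tested probe sets. Their medians were 0.07 in LOF carcinoma and 0.14 in GOF papilloma, and none passed. Of the Ski complex genes, Ttc37 had the largest value in LOF carcinoma (0.55) and Wdr61 in GOF papilloma (0.58). That Wdr61 value came from a dim probe set, and a brighter one gave 0.30. The main helicase gene of nuclear decay, Mtrex, is not given because its probe sets are shared with another gene.

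Other RNA decay genes (deadenylases, decapping factors and 5′ exonucleases among them) had 58 tested probe sets, of which 50 were positive in LOF carcinoma at a median of 0.29 and 29 in GOF papilloma at a median of 0.00. None passed in either comparison. Lsm4, of the ring that binds mRNA before decapping, had 0.78 in LOF carcinoma (adjusted p = 0.131), and Pnpt1, the mitochondrial polynucleotide phosphorylase, 0.79. In GOF papilloma Lsm2 had the largest value, 0.96 (adjusted p = 0.110, limma). The deadenylase gene Cnot6l had -0.89 (adjusted p = 0.0837), its relative Cnot6 0.72 and Lsm6 0.71. Genes of pre-rRNA processing, whose products share substrates with the exosome, had 39 tested probe sets. In LOF carcinoma their median was 0.68. A Nolc1 probe set among them passed the filter through the LOF arrays alone, and of the other 38, 37 were higher without overlap, against 25.6% of all tested probe sets that had not passed in that way. In GOF papilloma 18 of 39 were positive, at a median of -0.01. None passed in either comparison. Dkc1, the pseudouridine synthase of box H/ACA particles, had the largest difference in LOF carcinoma, 1.23 (adjusted p = 0.109).

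**Figure D3:**
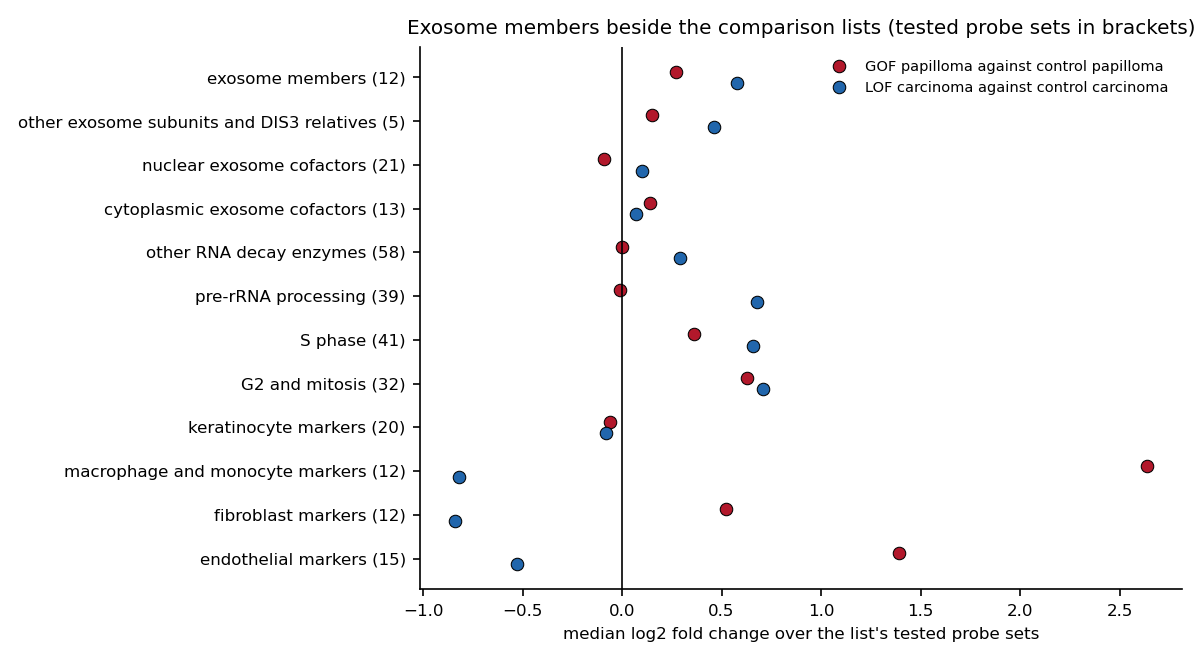
Median log2 fold change (x axis) over the tested probe sets of the exosome members and of each comparison list (rows, with the number of probe sets in brackets), for GOF against control papilloma and LOF against control carcinoma. In LOF carcinoma the members (0.58 over 12 probe sets) lie near pre-rRNA processing (0.68) and S phase (0.66). In GOF papilloma the members lie at 0.27, with macrophage markers far to the right at 2.64.

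Proliferation genes, read beside the members, also had positive medians in both comparisons. The 41 S phase probe sets had a median of 0.66 in LOF carcinoma, where all 41 were positive, and of 0.36 in GOF papilloma, where 34 were. Their mean log2 value was 8.38 and 8.60 in LOF carcinomas against 7.86 and 7.83 in control carcinomas, and 5.69 and 5.45 in GOF papillomas against 5.07 and 5.31 in control papillomas. Both carcinoma controls lay below both LOF arrays. With 1 array left out, the GOF median was 0.21 without GOF replicate 1, 0.22 without control papilloma replicate 1 and at most 0.47, and the LOF median was 0.51 to 0.81. The 32 probe sets of G2 phase and mitosis had medians of 0.71 in LOF carcinoma and 0.63 in GOF papilloma. That LOF median was 0.42 without LOF replicate 2 and at most 0.97, without LOF replicate 1. The GOF median was 0.39 without control papilloma replicate 1 and at most 0.77. None of either list passed, and the part of proliferation in the exosome values was not tested.

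Markers of other cell types also differed between the sorted samples. Over 12 tested macrophage and monocyte probe sets the mean log2 value was 5.44 and 6.40 in GOF papillomas against 3.22 and 3.13 in control papillomas. On the control papilloma arrays only 5 and 7 of the 12 were above background. Of the 12, 3 passed as higher, among them Lyz2, with 7.85 and 8.54 in GOF papillomas against 2.98 and 2.29, below background, in control papillomas. The macrophage mean was 5.26 and 5.62 in LOF carcinomas against 5.40 and 7.04 in control carcinomas, and control carcinoma replicate 2 stood highest. Endothelial markers averaged 4.99 and 5.06 in GOF papillomas against 3.41 and 3.30 in control papillomas, with 7 of 15 that passed as higher. They averaged 4.98 and 5.08 in LOF carcinomas against 5.24 and 5.97 in control carcinomas. Of the 15, 6 were above background on each LOF array, against 7 and 14 on the control carcinoma arrays, so most of these means lie near background. Fibroblast markers averaged 7.27 and 7.51 in GOF papillomas against 7.32 and 6.40 in control papillomas, and 6.40 and 6.81 in LOF carcinomas against 6.70 and 8.06 in control carcinomas, with none that passed. Some probe sets met the filter on dim probe sets through the GOF arrays alone and so had to be higher there. They were 3 of the 15 endothelial, 1 of the 12 macrophage and 1 of the 12 fibroblast probe sets. Of all tested probe sets, 0.902% passed the adjusted threshold in GOF papilloma, in either direction. Only 2 T cell probe sets were tested, and their mean was 5.19 and 5.17 in LOF carcinomas against 5.11 and 5.18 in control carcinomas. Without control carcinoma replicate 2, the median log2 fold change in LOF carcinoma was -0.02 for macrophage, -0.06 for fibroblast and -0.11 for endothelial markers, against -0.82, -0.84 and -0.53 with it. Without it, the members' median over 12 probe sets was 0.46, against 0.58 with it. Dis3 then had 0.96, the Exosc2 probe sets 1.11 and 1.09, Exosc8 0.64, Exosc9 0.56, Exosc1 0.50, Exosc3 0.42 and Exosc5 -0.28. The Exosc10 probe sets, brightest first, had 0.26, 0.37, 0.20 and 0.29, against 0.56, 0.58, 0.41 and 0.31 with it. In these bulk samples fewer cells of a type and less RNA per cell cannot be told apart. The part of other cells was not tested in the GOF or the LOF values, and leaving out 1 control array cannot show it.

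RNA quality, read as 3′ minus 5′ Actb probe sets on the log2 scale, was -0.62 and -0.57 in GOF papillomas against -0.52 and -0.65 in control papillomas. It was -0.21 and -0.28 in LOF carcinomas against -0.15 and -0.20 in control carcinomas. The papilloma groups overlapped, and both LOF arrays lay below both carcinoma controls by little.

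**Figure D4:**
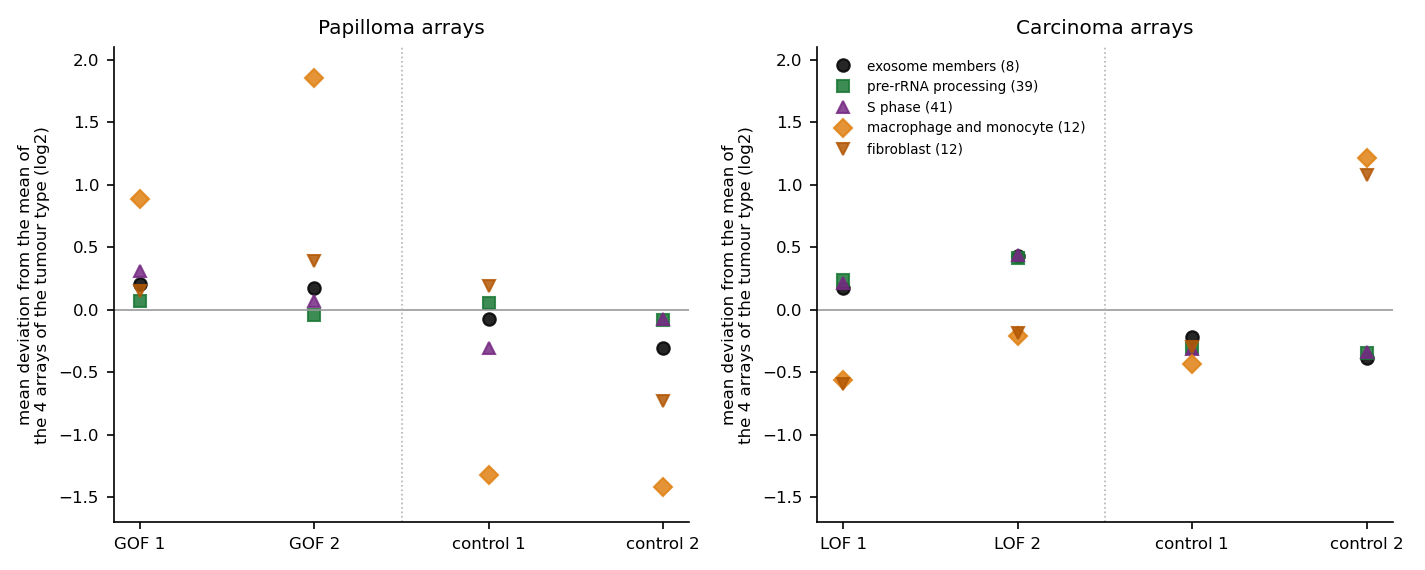
Mean deviation (y axis, log2) of each list on each array from the mean of the 4 arrays of its tumour type, papilloma on the left and carcinoma on the right, for exosome members, pre-rRNA processing, S phase, macrophage and fibroblast markers (number of probe sets in brackets). The exosome members lie at 0.17 and 0.43 on the LOF arrays and at -0.22 and -0.38 on the control carcinoma arrays, close to S phase and pre-rRNA processing, and at 0.21 and 0.17 on the GOF arrays and -0.08 and -0.30 on the control papilloma arrays.

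The genes with the profile most like the members' mean, by root mean square difference over the 8 arrays after each tumour type was centred on its own mean, were Armt1, Timm44, Abce1, Cycs and Tamm41, at 0.056 to 0.058 log2 units. Abce1, a ribosome recycling factor, read 10.49 and 10.66 in LOF carcinomas against 9.99 and 9.94 in control carcinomas, and 8.63 and 8.59 in GOF papillomas against 8.49 and 8.17 in control papillomas. Cycs, which encodes cytochrome c, read 9.90 and 10.07 in LOF carcinomas against 9.61 and 9.42 in control carcinomas, and 8.65 and 8.57 in GOF papillomas against 8.27 and 8.09 in control papillomas. Both genes had groups that did not overlap in either tumour type, which the choice by likeness to the members' mean favoured. Of all tested probe sets, 26.3% were higher without overlap in GOF papilloma and 26.0% in LOF carcinoma. The profiles share arrays and scaling, and the likeness is a description.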

How the data were processed

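The authors deposited 1 table of log2 values for the 8 Affymetrix mouse genome PM strip arrays, normalized with RMA, per the labels' protocols; the submitters' processing notes also name the affy package, with no version. Groups and replicate numbers came from the sample titles. Probe sets were named from the platform annotation, and symbols were updated through RefSeq (GRCm38.p6). Of 45141 probe sets in the table, 104 were controls; 551 with several genes and 15588 with none stayed unnamed.

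A probe set was tested where at least 2 of the 4 arrays of 1 tumour type exceeded that tumour type's median. The 25931 that passed were fitted with limma 3.58.1 in R 4.3.3 (lmFit, eBayes; 1 mean per group, a common spread with 4 residual and 3.03 prior degrees of freedom), contrasting GOF with control papilloma and LOF with control carcinoma. P-values were adjusted by Benjamini-Hochberg over all of them, with a threshold of 0.05. The fit was tested on simulated data. The number of arrays limits the precision. Within groups, arrays correlated at 0.980 to 0.991.

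All members were named; from other lists, up to 4 probe sets per comparison were eligible, those past the threshold first and then the largest log2 fold changes, and the 5 nearest profiles. The members and lists were chosen with earlier results of these data known. Alternatives covered the filter, probe sets per gene, the arrays giving the spread, the variance prior, scaling, the replicate block and leaving out each array.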

Additional observations from a re-analysis of the deposited data

How the results depend on the processing

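No exosome probe set passed the adjusted threshold under any alternative run, in either comparison. The members' median log2 fold change was 0.18 to 0.37 in GOF papilloma and 0.46 to 0.76 in LOF carcinoma when single arrays were left out. The direction of a probe set's value could change only with another scaling or without an array of its tumour type. In the other alternatives, which gave most of the values below, direction was fixed beforehand. Of 211 alternative values per comparison, 205 in GOF papilloma and 210 in LOF carcinoma kept their direction and their side of the threshold, and the rest changed sign when 1 array was left out. In GOF papilloma these were Exosc1 (-0.108 to 0.336 over the arrays left out) and the brightest Exosc10 probe set (-0.008 to 0.454), both without control replicate 2, the third Exosc10 probe set (-0.172 to 0.113) without GOF replicate 1 or control replicate 1, and the fourth (-0.068 to 0.023) without GOF replicate 2 or control replicate 2; in LOF carcinoma it was Exosc5 (-0.559 to 0.163) without LOF replicate 1. The counts of all probe sets past the threshold depended on more: the 234 in GOF papilloma became 83 with no filter, 155 with the mean of each gene's probe sets, 153 with the spread from the 4 papilloma arrays alone and 1 to 367 with 1 array left out, 11 of them without control papilloma replicate 2, while the 3 in LOF carcinoma became 0 with the 4 carcinoma arrays alone, 26 with a trended and robust prior and 0 to 152 with 1 array left out. All 4 groups share 1 spread in the main fit, so leaving out an array of the other tumour type changes a count through that spread alone. The cause of the other changes was not tested. With the replicate number as a replicate block the counts were 17 and 0. The differences between replicates 1 and 2 in the tested and the control group correlated at 0.056 in papilloma and 0.135 in carcinoma. These correlations cannot decide whether same-numbered arrays were handled together. List medians stayed within their spread in 221 of 228 alternatives per comparison. The spread was the SD of a list's median between arrays, combined over the 2 groups of 2 arrays. A list with a wide spread could change much and still count as unmoved. The macrophage median in LOF carcinoma did so, at -1.63 to -0.02 with 1 array left out. Changes to the variance estimate alone, or leaving out an array of the other tumour type, could not move a median. The list medians that moved were the endothelial markers (1.57 to 1.84) and other RNA decay genes (0.12) in GOF papilloma, and the cytoplasmic cofactors (0.26 to 0.38), S phase (0.51 and 0.81) and T cell markers (-0.21 and -0.05) in LOF carcinoma. Probe sets near background have compressed differences, so signal limits what the dimmer Exosc2, Exosc10 and Exosc1 probe sets can show.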
